A study of Homo sapiens with 12 samples.

Results

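HCC70 is a triple-negative breast cancer (TNBC) cell line. XY018 is an antagonist of the nuclear receptor RORγ. The comparison described here is the dose step of XY018 in HCC70 cells, the library treated at 2.5 μM for 24 h set against the library treated at 1.25 μM for 24 h. The vehicle library of the same experiment was the baseline. These are 3 of the 12 RNA-seq samples of the series, which also holds HCC70 cells given atorvastatin (ATV, a statin) at 1.25 μM alone or with XY018 at 1.25 μM, and MDA-MB468 cells given the same treatments or GSK805. Each HCC70 condition and each XY018 dose in MDA-MB468 has 1 library, so no test between doses was possible and no p-value is given. The labels give no genetic change, and HCC70 stands for 1 established tumor line with no other cells added. A gene entered the comparison if it reached 1 FPKM (fragments per kilobase of transcript, scaled to the depth of the library) in at least one of the dose libraries, and 11684 of the 16491 genes of the HCC70 table did.

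Cholesterol is built from acetyl-CoA through mevalonate, squalene and lanosterol. When sterols run low in the endoplasmic reticulum, SCAP carries the SREBP transcription factors to the Golgi, where they are cut and released to switch on the genes of this route, and INSIG proteins hold SCAP back when sterols are plentiful. LXR receptors sense oxidized sterols and switch on exporters such as ABCA1 and ABCG1.

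The dose step is given as the log2 ratio of FPKM at 2.5 over 1.25 μM with 0.1 added to each value. A gene is said to have fallen or risen when the ratio reached 1.5-fold, and smaller differences are given as values only. Beside the steps of many single genes stands a 95% exact (Clopper-Pearson) interval of the log2 ratio from the estimated numbers of fragments, and it is given for each named gene past 1.5-fold whose interval holds 0. These intervals cover counting error only and leave out the variation between cultures and library preparations. The depth estimated from the spacing of low FPKM values was 9580000 fragments for vehicle, 8960000 for 1.25 μM and 9860000 for 2.5 μM. Between 11486 and 11567 genes reached 1 FPKM per library, and the 10 most abundant genes of each took 14.8 to 15.2% of the summed FPKM.

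The label of the cells was checked against marker genes. All 6 breast epithelial markers were present, from 62.5 FPKM for EPCAM to 871 FPKM for KRT19. The basal markers KRT5, KRT14, KRT17 and EGFR were present, ESR1 lay between 0.37 and 0.56 FPKM, and ERBB2 lay between 25.3 and 25.7 FPKM. Of 9 markers of fibroblasts, leukocytes and endothelium, 6 were in the table, and CD68, a lysosomal protein used as a macrophage marker, made up most of their sum with 76.6, 83.6 and 90.0 FPKM at vehicle, 1.25 and 2.5 μM. The sum of the 6 was 82.4, 88.8 and 95.7 FPKM in the same order, while the leukocyte genes PTPRC and CD3E and the endothelial gene VWF stayed below 1 FPKM in all 3 libraries. The fibroblast gene COL1A1 was at 4.45, 3.87 and 3.84 FPKM and the endothelial gene PECAM1 at 1.03, 1.19 and 1.07 FPKM.

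Doubling the dose moved few genes past 1.5-fold. At the dose step 161 genes fell, which is 1.38% of those compared, and 137 rose, which is 1.17%. The median step over all genes was -0.01 on the log2 scale, with an SD of 0.26 across genes. For comparison, 254 genes (2.17%) were lower and 233 (1.99%) higher at 1.25 μM than with vehicle, and 320 (2.74%) were lower and 312 (2.67%) higher at 2.5 μM than with vehicle. These 3 comparisons share libraries with each other. Of the 254 genes lower at 1.25 μM, 118 were past 1.5-fold the same way at 2.5 μM, and of the 233 higher, 145 were. Among those with 5 FPKM in at least one of the 3 libraries, 73 of 106 and 65 of 83 were. The genes that moved at the step were mostly weakly expressed. Of the genes that fell, 78 had a highest dose level of 1 to 2 FPKM and 63 one of 2 to 5 FPKM, and of those that rose 68 and 42 lay in these ranges. Among the 678 genes at 100 FPKM or above, 0 passed 1.5-fold in either direction, and the central 95% of their steps ran from -0.18 to 0.20. Among the 1040 genes at 1 to 2 FPKM it ran from -1.02 to 0.88. The counting interval lay below 0 for 1050 of 11636 genes with a transcript length (9.02%) and above 0 for 942 (8.1%). These shares cover genes of all levels. An interval narrows with more fragments, so lists of well expressed genes can exceed them for that reason, and shares at matched levels were not computed. At the entry threshold of 1 FPKM, 13 genes such as ABHD1 and CD84 were just inside with a highest dose value of 1 FPKM, and 10 genes such as EML1 were just outside at 0.99 FPKM.

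**Figure D1:**
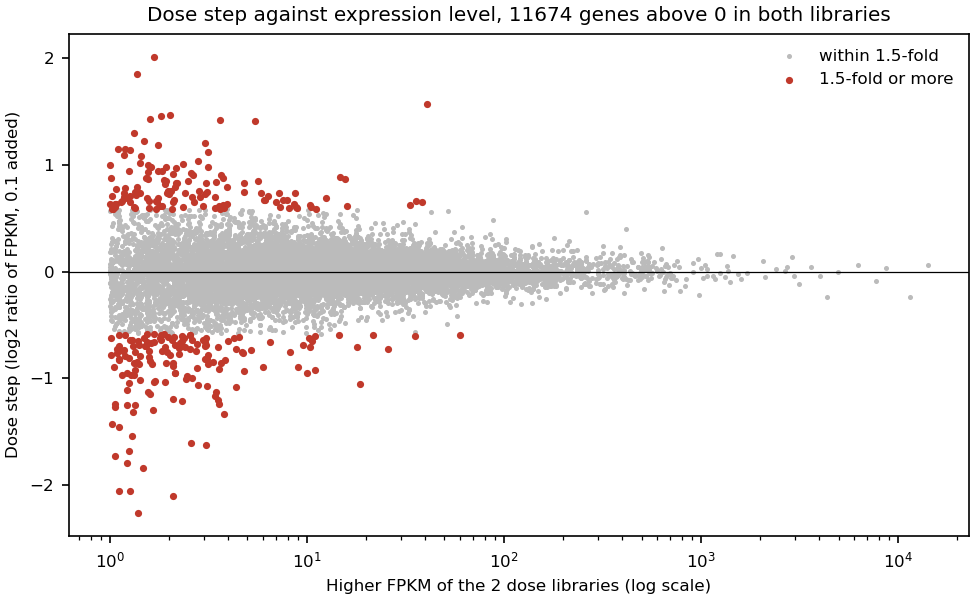
Dose step of each gene (log2 ratio of FPKM at 2.5 over 1.25 μM, 0.1 added) against the higher of its FPKM values in the dose libraries, on a log axis, 1 point per gene above 0 in both libraries and 1 library per dose. Red points passed 1.5-fold, and they thin out to the right, with 0 of 678 genes at 100 FPKM or above among them.

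The vehicle library was used to sort the genes by the shape of their response. A gene past 1.5-fold of vehicle at 1.25 μM was called graded if it went on by a further 1.5-fold in the same direction, saturated if the step stayed within 1.2-fold, and returned if it came back by 1.5-fold or more. A gene within 1.5-fold of vehicle at 1.25 μM was called late if it passed 1.5-fold at the step and lay past 1.5-fold of vehicle at 2.5 μM. By this sorting 30 genes were graded (13 falling, 17 rising), 215 saturated (101 lower, 114 higher), 98 returned (55 from below, 43 from above) and 103 late (66 falling, 37 rising). A further 58 genes went on by 1.2- to 1.5-fold and 86 came back by as much. The step and the change at 1.25 μM use the same 1.25 μM library, so noise in that library pushes them in opposite directions and adds to the returned genes. Noise in the 2.5 μM library adds to the late ones. Noise in the vehicle library moves the changes at both doses together and leaves the step as it is, so it adds to the saturated genes. Of the genes that reached 5 FPKM in at least one of the 3 libraries, 15 were graded, 108 saturated, 11 late and 10 returned.

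**Figure D2:**
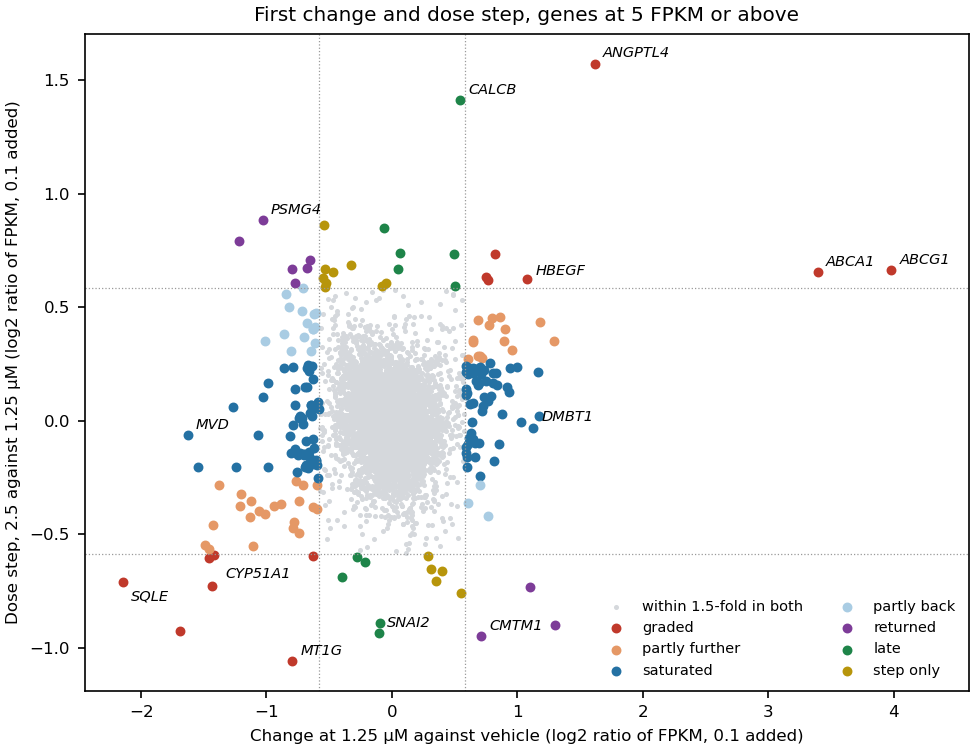
Change at 1.25 μM against vehicle (x) and dose step (y), both log2 ratios of FPKM with 0.1 added, for genes with 5 FPKM or more in any of the 3 HCC70 libraries and none listed at 0, colored by class, with dotted lines at 1.5-fold. Cholesterol-biosynthesis genes such as SQLE (-2.14 and -0.71) lie at the lower left, and ABCA1 (3.39 and 0.65) and ABCG1 (3.98 and 0.67) lie far to the right.

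The cholesterol-biosynthesis genes were lower again at the second dose. All 21 genes of the list were compared, and 19 of them had a step below 0, against 52.3% of all genes. Of the 21, 4 fell by 1.5-fold (CYP51A1, SQLE, MSMO1 and IDI1), against 1.38% of all genes. Lower by 1.2-fold or more were 13, against 8.11% of all genes (6.79% were higher by as much). The counting interval lay below 0 for 15, against 9.02% of genes with a transcript length. The median step of the list was -0.37, after a median change of -1.06 from vehicle at 1.25 μM, and the median change at 2.5 μM was -1.46. The median level of a member was 44.1 FPKM with vehicle, 18.8 FPKM at 1.25 μM and 15.2 FPKM at 2.5 μM, and the median share of the vehicle level went from 47.8% to 36.3%. In 19 of the 21 genes the libraries were ordered vehicle, 1.25 μM, 2.5 μM from high to low, which held for 23.2% of all genes. For the 18 members past 1.5-fold at 2.5 μM, the first dose had given a median of 72.8% of the log2 change, with a range of 49.9 to 121%. The list is one the study is about and its lower level with XY018 was known, so these counts are a description of the dose step and no independent evidence of its direction.

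**Figure D3:**
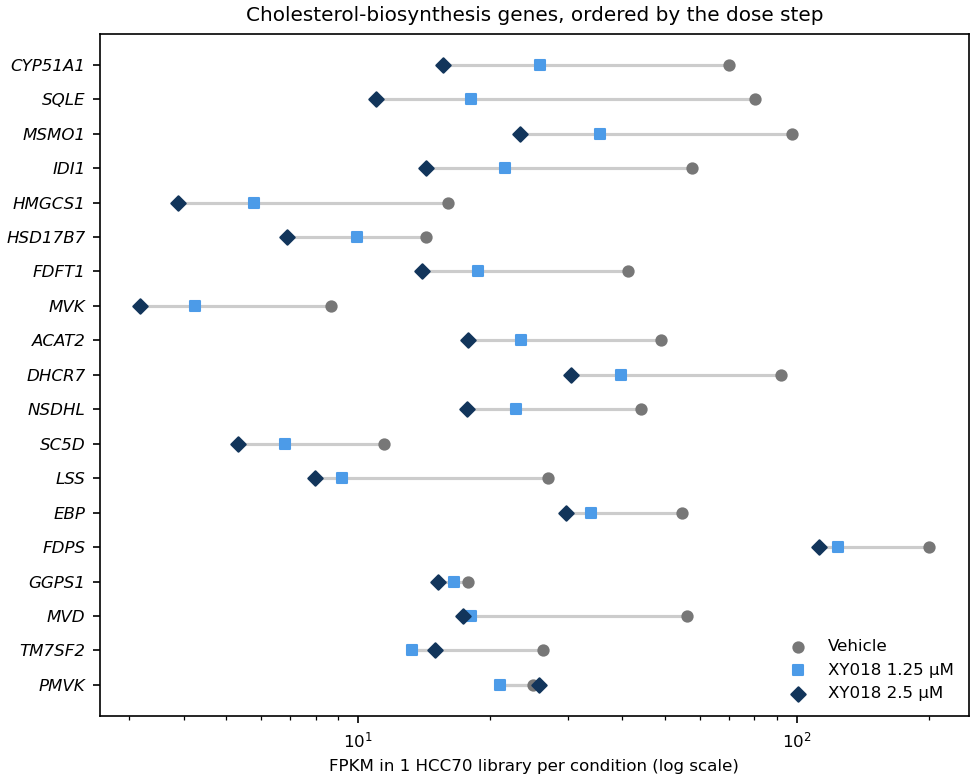
FPKM of 19 cholesterol-biosynthesis genes in the vehicle, 1.25 μM and 2.5 μM libraries of HCC70 on a log axis, 1 library per symbol, ordered from the lowest dose step (CYP51A1, -0.73) at the top to the highest (PMVK, 0.30) at the bottom. In 17 of the 19 genes the 2.5 μM symbol lies left of the 1.25 μM symbol.

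In the early part of the route, HMGCS1, which makes HMG-CoA, was at 16.1 FPKM with vehicle, 5.79 at 1.25 μM and 3.88 at 2.5 μM, a step of -0.57 (95% counting interval -0.85 to -0.31). The mevalonate kinase MVK was at 8.65, 4.25 and 3.17 FPKM with a step of -0.41 (-0.84 to 0.00). MVD, which decarboxylates mevalonate diphosphate, was level between the doses, with 56.1 FPKM in vehicle, 18.1 at 1.25 μM and 17.3 at 2.5 μM and a step of -0.06 (-0.30 to 0.17). PMVK, the kinase between MVK and MVD, stood apart from the list with 25.04, 21.0 and 25.9 FPKM and a step of 0.30 (0.02 to 0.58), so that its level at 2.5 μM was that of vehicle. IDI1, which isomerizes the isoprenoid unit, fell from 21.6 to 14.3 FPKM at the step (-0.59, interval -0.79 to -0.40) after 57.8 FPKM with vehicle.

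At the branch to sterols, FDPS (200.5, 124 and 112 FPKM) and GGPS1 (17.8, 16.5 and 15.2 FPKM), which make farnesyl and geranylgeranyl diphosphate, had steps of -0.15 and -0.12. Reads of FDPS and of HSD17B7 may be shared with processed pseudogenes, and how the counting split them is unknown. FDFT1, squalene synthase, was at 41.2, 18.8 and 13.98 FPKM with a step of -0.42 (-0.66 to -0.19). SQLE, the epoxidase that commits squalene to sterols, fell from 18.0 to 11.0 FPKM at the step (-0.71, interval -0.92 to -0.51) after 80.1 FPKM with vehicle, and at 2.5 μM its change from vehicle was -2.85. LSS, which closes the ring to lanosterol, was nearly level with 27.0, 9.18 and 7.95 FPKM and a step of -0.21 (-0.41 to -0.00). LSS and SQLE act next to each other, and both were among the members most reduced at 1.25 μM, by -1.55 and -2.14, but the intervals of their steps do not overlap.

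Below lanosterol, CYP51A1, the lanosterol demethylase, was at 70.0 FPKM with vehicle, 25.9 at 1.25 μM and 15.6 at 2.5 μM. Its step of -0.73 (-0.90 to -0.56) was the lowest of the list. MSMO1, which oxidizes the next sterol methyl groups, was at 97.7, 35.6 and 23.4 FPKM with a step of -0.60 (-0.77 to -0.44). NSDHL (44.1, 22.9 and 17.7 FPKM), HSD17B7 (14.3, 9.93 and 6.89 FPKM), SC5D (11.4, 6.81 and 5.31 FPKM) and DHCR7 (92.0, 39.6 and 30.6 FPKM) were each lower at the higher dose, with steps of -0.37, -0.52, -0.35 and -0.37. The isomerase EBP (54.7, 34.0 and 29.7 FPKM) had a step of -0.19 and the reductase TM7SF2 (26.4, 13.3 and 14.9 FPKM) one of 0.17, both with intervals that hold 0. ACAT2, which joins acetyl-CoA units ahead of the mevalonate route, was at 49.0, 23.5 and 17.8 FPKM with a step of -0.40 (-0.64 to -0.16).

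The library that received XY018 at 1.25 μM together with ATV is not a replicate, but it holds the same XY018 dose. In that library CYP51A1 was at 21.7 FPKM, SQLE at 15.3, MSMO1 at 36.1 and IDI1 at 19.0 FPKM. With XY018 alone at 1.25 μM they were at 25.9, 18.0, 35.6 and 21.6 FPKM. Among the list members named here, MSMO1, MVD, TM7SF2 and PMVK were higher with ATV added than with 1.25 μM alone, and the others were lower. Over the whole list 18 of 21 genes were higher in the library with XY018 and ATV than at 2.5 μM. The 3 that were lower were FDPS (96.2 FPKM), EBP (25.1 FPKM) and PMVK (25.03 FPKM). The share of all genes that were higher in it than at 2.5 μM was not computed. With ATV alone CYP51A1, SQLE, MSMO1 and IDI1 were at 84.0, 105, 124 and 71.5 FPKM.

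In MDA-MB468, the second TNBC line, the median dose step of the 21 genes was -0.29 and 20 of 21 were below 0. The share of all genes below 0 was not computed for this line, here or for the other lists. By 1.5-fold, 1.73% of the 11775 genes compared were lower and 1.04% higher. There CYP51A1 went from 22.3 FPKM at 1.25 μM to 17.1 at 2.5 μM (-0.38), SQLE from 45.4 to 36.7 (-0.30) and HMGCS1 from 23.5 to 15.6 FPKM (-0.59). Differences between the lines in these steps were not tested, since each has 1 library per dose and the tables were normalized separately.

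Sequences in front of the start sites of these genes were compared with those of all genes, because the members moved together. RefSeq promoters (250 bases before the start site to 50 after it) were available for 16 of the 21 genes, and a gene was counted if any of its listed start sites matched. Searched on both strands were CCAAT (the element bound by NF-Y), CACCCCAC (a core of sterol regulatory elements), AGGTCA (the core site of many nuclear receptors) and TGATGCAAT (an ATF4 element), none of which contains another. CCAAT was present in 14 of 16 (87.5%), against 43.6% of the 9614 compared genes with a promoter and 39.7% of all 27305. It was found in 8 of 9 members whose step reached 1.2-fold and in 6 of 7 of the others. CACCCCAC was found in 0 of 16 (3.64% of compared genes), AGGTCA in 1 of 16 (13.6%) and TGATGCAAT in 0 of 16 (0.229%). A match is a description of letters, and nothing follows from it about binding. The promoters of 2 graded members, MSMO1 (chr4:165327419-165327718, plus strand) and CYP51A1 (chr7:92134428-92134727, minus strand), and of 2 saturated members, MVD (chr16:88663042-88663341, minus strand) and LSS (chr21:46228725-46229024, minus strand), are shown from RefSeq (GRCh38.p14) with CCAAT or its reverse complement in capitals. They show that MSMO1 holds 4 copies, MVD 3 and LSS 1, while CYP51A1, the member with the lowest step, holds 0.
MSMO1: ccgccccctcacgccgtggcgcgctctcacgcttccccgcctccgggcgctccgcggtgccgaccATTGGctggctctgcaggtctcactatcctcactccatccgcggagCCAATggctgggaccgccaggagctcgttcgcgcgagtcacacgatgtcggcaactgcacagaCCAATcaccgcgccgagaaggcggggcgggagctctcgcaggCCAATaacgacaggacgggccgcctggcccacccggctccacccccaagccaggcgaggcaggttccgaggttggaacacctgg
CYP51A1: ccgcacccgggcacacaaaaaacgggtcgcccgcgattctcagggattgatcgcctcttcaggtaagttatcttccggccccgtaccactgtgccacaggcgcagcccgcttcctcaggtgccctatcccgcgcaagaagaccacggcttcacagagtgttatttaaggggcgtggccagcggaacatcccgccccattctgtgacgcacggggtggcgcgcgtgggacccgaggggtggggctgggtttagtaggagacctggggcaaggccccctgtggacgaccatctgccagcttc
MVD: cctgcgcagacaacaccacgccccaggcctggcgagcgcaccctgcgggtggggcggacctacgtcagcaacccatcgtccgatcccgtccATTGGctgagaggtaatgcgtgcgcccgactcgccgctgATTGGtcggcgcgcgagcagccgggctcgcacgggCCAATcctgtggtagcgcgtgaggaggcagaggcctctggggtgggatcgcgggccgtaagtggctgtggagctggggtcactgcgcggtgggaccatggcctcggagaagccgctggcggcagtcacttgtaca
LSS: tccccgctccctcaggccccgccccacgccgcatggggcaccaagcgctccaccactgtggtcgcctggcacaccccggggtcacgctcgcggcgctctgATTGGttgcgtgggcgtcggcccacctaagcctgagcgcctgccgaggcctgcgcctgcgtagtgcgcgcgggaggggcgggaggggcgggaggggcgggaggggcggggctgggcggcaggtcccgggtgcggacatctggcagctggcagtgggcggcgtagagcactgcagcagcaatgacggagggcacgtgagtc

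Among the factors that control this route the steps ran from -0.54 to 0.11. Of 12 SREBP factors and sterol sensors 0 passed 1.5-fold, close to the share of all genes (2.55% either way). The median step was 0.01, against -0.01 over all genes. SREBF2, which encodes the SREBP that drives cholesterol genes, was at 137, 106 and 96.0 FPKM with a step of -0.14 (-0.20 to -0.09). SREBF1, which encodes the SREBP tied to fatty acid synthesis and is itself an LXR target, was higher than vehicle at both doses and nearly level between them, with 37.4, 64.9 and 69.9 FPKM and a step of 0.11 (0.04 to 0.18). INSIG1, the sterol-regulated retention factor, was the member that followed the enzymes, with 32.3, 11.4 and 7.79 FPKM and a step of -0.54 (-0.81 to -0.29). INSIG2 (6.36, 5.95 and 6.02 FPKM), SCAP (18.1, 16.1 and 17.2 FPKM) and the site proteases MBTPS1 and MBTPS2 had steps from -0.00 to 0.09. The ubiquitin ligase RNF139 and the erlins ERLIN1 and ERLIN2 had steps of 0.01, 0.06 and -0.22.

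Of 13 genes of sterol uptake and trafficking, 1 fell (1.38% of all genes did) and 0 rose (1.17%), with a median step of -0.05. Of the 13, 8 lay below 0 and 5 above, the steps ran from -0.92 to 0.41, and the summed FPKM went from 298.7 with vehicle to 272.8 and 259.0 at the doses. NPC2 and NPC1, which move cholesterol out of lysosomes, were at 41.8, 49.1 and 42.2 FPKM (-0.22, interval -0.43 to 0.01) and at 26.4, 30.3 and 32.4 FPKM (0.09, interval -0.01 to 0.20). TMEM97, a sterol-regulated membrane protein, was at 14.5, 9.22 and 8.23 FPKM (-0.16, interval -0.46 to 0.12). VLDLR, a receptor for triglyceride-rich lipoproteins, had the highest step of the list, with 11.9, 16.0 and 21.3 FPKM and a step of 0.41 (0.31 to 0.51).

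The sterol exporters were raised further. Of 10 LXR receptors and targets compared, 2 rose at the step (1.17% of all genes did), ABCA1 and ABCG1. ABCA1 (chr9:107543287-107690436 in GRCh37), which moves cholesterol onto lipid-poor apolipoprotein, was at 2.22 FPKM with vehicle, 24.3 at 1.25 μM and 38.3 at 2.5 μM, from an estimated 221, 2262 and 3925 fragments. Its step was 0.65 (0.58 to 0.73) and 83.8% of its log2 change was present at 1.25 μM. ABCG1 (chr21:43619799-43717354), which exports cholesterol to HDL, was at 1.34, 22.6 and 35.9 FPKM with a step of 0.67 (0.52 to 0.82). The values of both genes in the library with XY018 and ATV, 27.0 and 24.9 FPKM, lay between those of the doses, and with ATV alone they were at 1.65 and 1.26 FPKM. The phospholipid transfer protein PLTP (24.1, 31.3 and 37.2 FPKM) had a step of 0.25, while LPCAT3, a lysophospholipid acyltransferase, was at 33.5, 47.6 and 47.0 FPKM with a step of -0.02. The receptors NR1H3 and NR1H2 had steps of -0.24 and 0.13, and their partner RXRA one of -0.29 (-0.42 to -0.15). In MDA-MB468 the exporters were lower in level, with ABCA1 at 0.74 and 1.31 FPKM and ABCG1 at 4.21 and 5.77 FPKM in the 2 doses and steps of 0.75 and 0.45.

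Of 18 genes of fatty acid synthesis and desaturation, 0 passed 1.5-fold at the step (2.55% of all genes did, either way). Of the 18, 12 lay below 0 (52.3% of all genes did) and the median was -0.10. The desaturases FADS1 (10.9, 7.01 and 5.36 FPKM) and FADS2 (54.1, 23.4 and 18.7 FPKM) had steps of -0.38 and -0.32, and the synthase FASN (79.2, 48.7 and 43.9 FPKM) one of -0.15. SCD, a stearoyl-CoA desaturase, was level with 93.2 and 90.8 FPKM at the doses. The elongase ELOVL6 was at 3.69, 5.60 and 6.07 FPKM (0.11) and the acyl-CoA synthetase ACSL3 at 32.5, 65.2 and 76.8 FPKM (0.24, interval 0.17 to 0.30). PNPLA3, a lipid droplet hydrolase and SREBP target, was at 6.87, 2.85 and 2.46 FPKM with a step of -0.20.

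The gene that rose most at the step among those at 5 FPKM or above with an interval above 0 was ANGPTL4 (chr19:8428173-8439254 in GRCh37), a secreted inhibitor of lipoprotein lipase and a target of PPAR receptors and of hypoxia. It was at 4.38 FPKM with vehicle, 13.6 at 1.25 μM and 40.8 at 2.5 μM, a step of 1.57 (1.37 to 1.80). Its changes at the first dose and at the step were nearly equal on the log2 scale, with 50.7% of the total present at 1.25 μM. PLIN2, which coats lipid droplets, was at 126, 177 and 261 FPKM with a step of 0.56 (0.49 to 0.63), just under 1.5-fold. Over the 16 genes of fatty acid oxidation and lipid droplets, ANGPTL4 was the 1 that rose (1.17% of all genes did) and 0 fell. Of the 16, 12 lay above 0 (47.2% of all genes did) and the median step was 0.15. In MDA-MB468 ANGPTL4 was at 0.81 and 1.05 FPKM and PLIN2 at 27.9 and 32.0 FPKM at the doses.

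**Figure D4:**
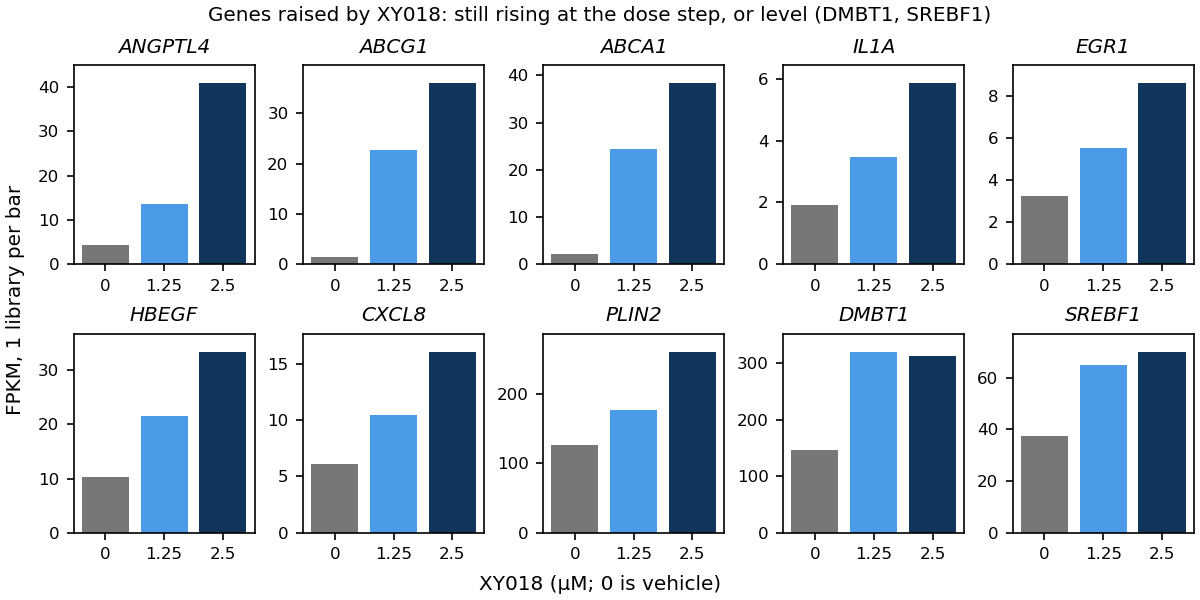
FPKM of 10 genes in the vehicle (0), 1.25 and 2.5 μM libraries of HCC70, 1 library per bar and a separate axis from 0 in each panel. ANGPTL4 reached 40.8 FPKM at 2.5 μM from 13.6 at 1.25 μM, whereas DMBT1 (320 and 313 FPKM) and SREBF1 (64.9 and 69.9 FPKM) were level between the doses.

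Genes of the integrated stress response, in which ATF4 drives amino acid synthesis and transport when translation is held back, were shifted upward in small steps. Of 29 genes compared, 27 had a step above 0 (47.2% of all genes did). A counting interval above 0 was found for 16 (8.1% of genes with a transcript length, at any level). The order vehicle, 1.25 μM, 2.5 μM from low to high held for 26, against 18.6% of all genes. Of the 29, 2 rose by 1.5-fold (1.17% of all genes did), and both were weakly expressed hormones. They were GDF15 (0.6, 1.12 and 2.35 FPKM) and FGF21 (0.4, 0.51 and 1.02 FPKM), the latter with an interval of -0.52 to 2.66. The median step was 0.18, after a median change of 0.32 at 1.25 μM. Members higher than vehicle by 1.5-fold numbered 5 at 1.25 μM (1.99% of all genes) and 12 at 2.5 μM (2.67%). DDIT4, an inhibitor of mTORC1, was at 26.1, 35.2 and 52.3 FPKM with a step of 0.57 (0.33 to 0.81). CHAC1, which degrades glutathione, was at 9.28, 13.6 and 18.3 FPKM, and ASNS, asparagine synthetase, at 64.5, 98.3 and 114 FPKM, with steps of 0.42 and 0.21. VEGFA (51.7, 66.6 and 84.8 FPKM) and SESN2 (13.6, 22.2 and 27.1 FPKM) had steps of 0.35 and 0.29. ATF4 transcript itself was at 295, 355 and 362 FPKM with a step of 0.03, and CEBPG and SLC7A11 were the members below 0, at -0.10 and -0.02. In MDA-MB468 the median step of the list was 0.04 and 14 of 29 members lay below 0. Of 20 chaperones of the endoplasmic reticulum in HCC70, 0 passed 1.5-fold (2.55% of all genes did, either way) and the median was 0.04. DNAJB9 among them was at 4.47, 4.19 and 5.44 FPKM (0.37).

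The early response genes lay higher at 2.5 μM as well. Of 24 genes of early response and MAPK feedback, 2 rose (1.17% of all genes did), 0 fell, 18 lay above 0 (47.2%) and 11 had a counting interval above 0 (8.1%), with a median of 0.19. FOSL1, an AP-1 subunit, was at 3.66, 5.21 and 8.74 FPKM, a step of 0.74 (0.33 to 1.15). EGR1, an immediate early zinc finger factor, was at 3.24, 5.51 and 8.61 FPKM, a step of 0.63 (0.35 to 0.94), and at 15.4 FPKM in the library with XY018 and ATV. FOS (9.82, 13.9 and 17.8 FPKM) and KLF4 (14.2, 18.7 and 24.8 FPKM) had steps of 0.35 and 0.40. The growth factor HBEGF, an EGFR ligand outside the list that was named after its values were seen, was at 10.2, 21.6 and 33.4 FPKM, a step of 0.63 (0.46 to 0.80). In MDA-MB468 the median step of the list was -0.08.

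NF-kB targets, cytokines and acute phase genes split in direction. Of 33 genes 3 rose (1.17% of all genes did) and 0 fell, 12 had a counting interval above 0 (8.1%) and 7 one below 0 (9.02%), and the median was 0.06. The interleukin IL1A was at 1.92, 3.48 and 5.86 FPKM, a step of 0.74 (0.30 to 1.22). IL1B (7.94, 11.8 and 17.1 FPKM), LIF (14.5, 17.8 and 24.5 FPKM) and the chemokine CXCL8 (6.10, 10.4 and 16.1 FPKM) had steps of 0.53, 0.46 and 0.62. The remaining member that rose, CXCL3, was at 1.1, 0.45 and 1 FPKM, with an interval of -0.61 to 3.31. Abundant calcium-binding proteins lay the other way, with S100A8 at 6155, 4349 and 3687 FPKM and S100A7 at 11038, 11494 and 9769 FPKM and steps of -0.24 and -0.23, and the chemokine CXCL5 was at 25.3, 14.7 and 10.8 FPKM (-0.45).

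Interferon-stimulated genes were on the whole lower at the higher dose in HCC70. Of 29 genes 2 fell (1.38% of all genes did), OASL and IFI44L, 0 rose and 21 lay below 0 (52.3%). The counting interval lay below 0 for 10 (9.02% of genes with a transcript length) and above 0 for 1 (8.1%). The median step was -0.15, after a median change of -0.10 at 1.25 μM. OASL, an antiviral relative of the oligoadenylate synthetases, was at 12.7, 9.60 and 5.93 FPKM, a step of -0.69 (-0.97 to -0.43). IFI44L (3.44, 2.56 and 1.66 FPKM), IFI44 (32.9, 29.2 and 22.6 FPKM) and OAS2 (4.76, 4.81 and 3.25 FPKM) had steps of -0.60, -0.37 and -0.55. The abundant member IFI6 was at 107, 102 and 87.0 FPKM (-0.22). In MDA-MB468 the median step of the list was 0.01, and 12 of 26 members lay below 0.

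Genes of mitosis showed a narrow downward shift, and those of DNA replication did not. Of 30 genes of mitosis and spindle 28 had a step below 0 (52.3% of all genes did) and 10 a counting interval below 0 (9.02%). Of the 30, 0 passed 1.5-fold (2.55% of all genes did, either way), and the median was -0.08 after -0.01 at 1.25 μM. MAD2L1, a spindle checkpoint protein, was at 18.5, 19.5 and 16.0 FPKM, a step of -0.29 (-0.43 to -0.15). CDK1 was at 49.5, 50.8 and 45.3 FPKM (-0.17), the proliferation antigen MKI67 at 70.8, 79.5 and 75.7 FPKM (-0.07), and PLK1 and CDC20 were level with steps of 0.01 and 0.00. For 32 genes of DNA replication the median was -0.00, with 17 below 0, and RFC3, a subunit of the clamp loader, was at 21.9, 24.95 and 20.6 FPKM (-0.28). In MDA-MB468 the median step was -0.35 for the mitosis list, with 30 of 30 below 0, and -0.21 for the replication list. The share of all genes below 0 in that line was not computed. Among G1 regulators 0 of 19 passed 1.5-fold in HCC70 (2.55% of all genes did, either way). The inhibitors CDKN2D (14.7, 12.2 and 15.8 FPKM) and CDKN1A (88.6, 82.6 and 102 FPKM) had steps of 0.38 and 0.31.

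**Figure D5:**
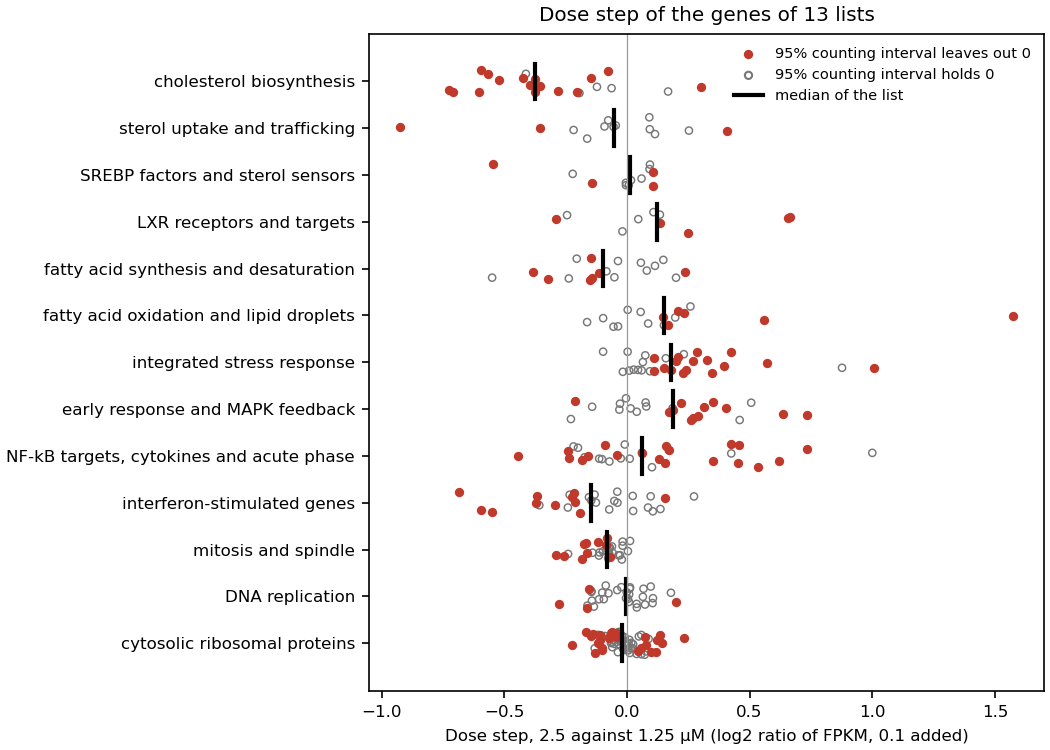
Dose step (log2 ratio of FPKM at 2.5 over 1.25 μM, 0.1 added) of each compared gene of 13 lists in HCC70, 1 library per dose, with filled red points where the 95% counting interval leaves out 0, open points where it holds 0, and a bar at each list's median. The cholesterol list has the lowest median of the lists drawn (-0.37) and the early response list (0.19) the highest, while the ribosomal proteins lie near 0 (-0.02).

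The remaining lists are given with their members past 1.5-fold. The basal keratin KRT5 was at 660, 408 and 355 FPKM and KRT17 at 379, 232 and 230 FPKM, so most of the lower level of both was present at 1.25 μM, and KRT6A (85.4, 50.5 and 43.2 FPKM) had a step of -0.23. In bulk RNA, fewer cells of a kind and less RNA per cell cannot be told apart. Of 18 keratin and lineage genes 0 passed 1.5-fold (2.55% of all genes did, either way), with a median of -0.10. Among xenobiotic receptor targets, CYP1A1, which AHR switches on, was at 24.5, 9.05 and 6.55 FPKM with a step of -0.46 (-0.76 to -0.16), and CYP1B1 at 176, 108 and 88.5 FPKM (-0.28). CYP3A5 (1.39, 1.34 and 2.5 FPKM) and CYP2B6 (0.69, 0.79 and 1.36 FPKM), drug-metabolizing enzymes, were the 2 of 9 that rose (1.17% of all genes did). In this list 0 fell, and the median was -0.05. The interval of CYP2B6 held 0 (-0.02 to 1.58). In the glycolysis and hypoxia list 2 of 30 rose (1.17% of all genes did), CA9 and ADM, and 1 fell (1.38%), ANKRD37. The median was 0.05. The intervals of ADM (-0.04 to 1.30) and ANKRD37 (-3.15 to 0.37) held 0. There the carbonic anhydrase CA9 was at 4.08, 4.27 and 7.19 FPKM (0.74, interval 0.29 to 1.24), NDRG1 at 44.6, 63.1 and 88.5 FPKM (0.49) and the glucose transporter SLC2A1 at 46.4, 64.5 and 80.5 FPKM (0.32). PER3 was the clock gene with the largest step at 5 FPKM or above (15.3, 14.5 and 12.7 FPKM, -0.19).

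Medians of the other lists lay between -0.22 and 0.03. They were -0.22 for 15 replication-dependent histones (H2BC4 at 8.13, 10.4 and 6.34 FPKM), -0.09 for 7 mesenchymal genes, -0.02 for 18 YAP and SRF targets (TPM1 at -0.16), -0.02 for 69 ribosomal proteins (RPL13 at 0.23), -0.01 for 5 markers of other cell types (LYZ at -0.25), -0.00 for 17 heat shock proteins (HSPB1 at 0.16) and 0.02 each for 20 NRF2 targets (OSGIN1 at 0.56) and 16 ROR and clock genes. In these lists 1 of the 7 mesenchymal genes fell, SNAI2, and 2 of the 15 histones, H2BC4 and H2AC17 (1.38% of all genes did). Of the 18 YAP and SRF targets 2 rose (1.17% of all genes did), both near the entry threshold. They were ACTA2 (0.8, 0.59 and 1.03 FPKM) and MYL9 (0.51, 0.65 and 1.03 FPKM). The intervals held 0 for H2BC4 (-1.44 to 0.04), H2AC17 (-1.89 to 0.32), ACTA2 (-0.68 to 2.32) and MYL9 (-0.27 to 1.65). For 25 genes of the BCL2 family and death receptors and for 19 G1 regulators the median was 0.03. Of the 25, 1 rose (1.17% of all genes did), BCL2A1 (1.31, 2.07 and 3.42 FPKM, interval -0.24 to 1.81). BIK, a BH3-only protein, was at 16.9, 11.4 and 15.2 FPKM (0.41). Among 415 biological processes annotated in the table with 15 to 300 compared genes, the medians ran only from -0.13 (positive regulation of protein kinase activity, 15 genes) to 0.12 (response to retinoic acid, 17 genes).

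Several genes outside these lists fell in a graded way. MT1G, a metallothionein, was at 32.3 FPKM with vehicle, 18.6 at 1.25 μM and 8.86 at 2.5 μM, a step of -1.06 (-1.72 to -0.45) from an estimated 65 and 34 fragments. In the library with XY018 and ATV it was at 35.4 FPKM, closer to vehicle than to the library with XY018 alone at the same dose. SLC6A14, an amino acid transporter named after its values were seen, was at 22.6, 14.6 and 9.62 FPKM, a step of -0.60 (-0.79 to -0.42). SMN2, a near-identical copy of SMN1 whose reads the counting can split, is listed at 5.96 and 2.46 FPKM with vehicle and 1.25 μM and at 0 with 2.5 μM and with ATV alone, and no ratio is given.

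The late genes at 5 FPKM or above had moved within 1.5-fold at 1.25 μM. SNAI2, a transcription factor of epithelial to mesenchymal transition, was at 5.14, 4.78 and 2.45 FPKM (-0.94, interval -1.50 to -0.47), and at 5.01 FPKM with XY018 and ATV. KYNU, the kynureninase of tryptophan breakdown, was at 13.4, 11.0 and 7.23 FPKM (-0.60, interval -0.72 to -0.49) and at 7.78 FPKM with XY018 and ATV, close to the value at 2.5 μM. The remaining falling ones were OASL, given above, CNFN, a protein of the cornified envelope (11.9, 10.2 and 6.61 FPKM, interval -1.34 to 0.02), and GTF2H2, which has near-identical copies (6.45, 6.02 and 3.20 FPKM). On the rising side CALCB, a calcitonin gene-related peptide, was at 1.34, 2 and 5.49 FPKM (1.41, interval 0.68 to 2.33) from an estimated 18 and 55 fragments at the doses, and at 5.53 FPKM with XY018 and ATV. Others were FOSL1 and CA9, given above, MORN1 (4.55, 4.70 and 7.54 FPKM) and PRSS3 (3.73, 5.32 and 8.09 FPKM, interval -0.01 to 1.21).

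The saturated genes had a step within 1.2-fold by definition. For 32 of the 215 the counting interval of the step still left out 0, as for ACSL3 and SREBF1, given above. DMBT1, a secreted scavenger-receptor protein of epithelia, was at 146, 320 and 313 FPKM, a step of -0.03 (-0.06 to -0.00). HP, which encodes haptoglobin (3.23, 7.41 and 7.53 FPKM), DEPP1 (5.89, 12.2 and 12.1 FPKM) and CEACAM5, a cell adhesion antigen (2.45, 5.62 and 6.55 FPKM), had steps of 0.02, -0.01 and 0.22. On the lower side MVD, LSS and PNPLA3 were joined by the chloride channel protein CLIC3 (12.8, 5.25 and 5.49 FPKM) and the sterol sulfotransferase SULT2B1 (5.74, 2.68 and 2.56 FPKM), with steps of 0.06 and -0.06. Those of CLIC3 and SULT2B1 rest on an estimated 37 and 28 fragments at 1.25 μM and could hide a step of 1.5-fold, since their intervals ran from -0.59 to 0.75 and from -0.83 to 0.76, and so could that of PNPLA3 (-0.73 to 0.28).

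Genes that came back toward vehicle at the step were few at 5 FPKM or above. PSMG4, a proteasome assembly chaperone, was at 16.4, 7.96 and 14.8 FPKM (0.88, interval 0.40 to 1.37), and GPR157, an orphan receptor, at 6.12, 3.85 and 6.36 FPKM (0.71). HNRNPH2, an RNA-binding protein, was at 8.68, 4.95 and 7.94 FPKM (0.67) and the antisense transcript TYMSOS at 6.04, 3.75 and 6.04 FPKM (0.67, interval -0.09 to 1.46). From above, CMTM1 was at 6.10, 10.1 and 5.17 FPKM (-0.95, interval -1.46 to -0.46), and it was at 9.63 FPKM with XY018 and ATV. NPIPA2 (3.60, 9.03 and 4.80 FPKM) and ARHGAP11B (2.38, 5.23 and 3.11 FPKM) belong to duplicated families, and the readthrough CHURC1-FNTB (5.31, 2.22 and 3.92 FPKM) overlaps the genes it joins. MTPN is listed at 9.19 FPKM at 1.25 μM and at 0 in each of the other HCC70 libraries, so no ratio is given. BMI1 (5.59, 8.22 and 4.82 FPKM) and the readthrough COMMD3-BMI1 (8.26, 4.78 and 7.34 FPKM) overlap and lay in opposite directions, with steps of -0.76 and 0.61, the latter with an interval of -0.10 to 1.42. The remaining genes with the largest steps, CRB3, a polarity protein (12.4, 8.51 and 15.6 FPKM), and the readthrough ATP5MF-PTCD1 (9.65, 7.69 and 12.5 FPKM), passed 1.5-fold at the step only, with values on either side of vehicle. Of the 298 genes past 1.5-fold in either direction (2.55%), 10 are listed at 0 in one of the dose libraries.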

How the data were processed

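RNA-seq libraries of HCC70 and MDA-MB468 cells were used, a single one for each condition compared. A second vehicle library of MDA-MB468, of the GSK805 experiment, was not used here. Reads were mapped by the authors with BWA and Bowtie to GRCh37 (hg19) and estimated gene levels with Cufflinks, per the methods and processing notes, and versions are not given in the sources used here. Values were deposited as FPKM, which the authors had scaled table by table, and the file headers name no unit. All sample columns used were mapped to samples by name, and 0 columns were left unmapped. The tables hold no comparisons by the authors. The GSK805 table was not used here.

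The log2 ratio of FPKM at 2.5 over 1.25 μM was computed with a pseudocount of 0.1 for every gene that reached 1 FPKM in either dose library, and genes at 1.5-fold or more were counted, with 1.2-fold as the limit for a level step. No test was run, since neither dose has a replicate. Adding 0.1 understates the change of low genes. Of 16491 Entrez IDs, 16461 matched RefSeq and took its current symbol, and 27 entries whose symbol a spreadsheet had turned into a date were named in this way. Coordinates and transcript lengths come from GENCODE on GRCh37, and promoters from RefSeq on GRCh38.p14, without conversion between builds.

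Read counts are not in the files used here. Low FPKM values are spaced by the worth of 1 fragment, which depends on transcript length and library depth, so depth was inferred from the spacing, with 13 offsets to the transcript length of up to 240 nt tried and the one of the highest mean score kept per table (20 nt in HCC70, 40 nt in MDA-MB468). Fragments per gene then gave the 95% Clopper-Pearson intervals, which are approximate. For near-identical copies, readthroughs and antisense genes the counting could split reads, and its use of strand is not given in the sources used here.

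The 26 gene lists and the members were chosen with earlier results of these data known. Named were all genes of the cholesterol and SREBP lists, the gene with the largest absolute step of each other list at 5 FPKM or above in one of the 3 libraries, the 10 with the largest fall and the 10 with the largest rise at 5 FPKM or above in a dose library whose interval leaves out 0, and up to 5 per class and direction at 5 FPKM or above, together with a few single genes such as ABCA1, ABCG1 and ELOVL6. This gave 90 genes, of which 82 are reported here. The others are not reported here by name, but they count in the lists and totals. Other list members and genes in the text were named after their values were seen. Alternatives were a pseudocount of 1 or 0.01, no filter, a filter at 5 FPKM, a filter that includes vehicle, rescaled libraries, and calls at 2-fold and 1.2-fold. Leaving out genes listed at 0 was added after seeing the data. Scripts ran in Python 3.11.15 (pandas 2.3.3, numpy 2.4.6, matplotlib 3.10.9, scipy 1.17.1).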

Additional observations from a re-analysis of the deposited data

Results flagged for a closer look

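The dose step had opposite signs in the cell lines for 8 of the 70 named genes compared in both, with counting intervals that leave out 0 in each line. In all, 33 named genes had such intervals in both lines and 25 had the same sign. Every one of these differences rests on 1 library per dose and line, and the difference was not tested. Many of the named genes were picked for large steps in HCC70. The share with opposite signs among the 10765 genes compared in both lines was not computed, so 8 cannot be called many or few. In HCC70 the step was 0.74 for CA9, 0.63 for EGR1 and 0.74 for FOSL1, and in MDA-MB468 it was -1.36 (4.02 to 1.51 FPKM), -0.64 (8.12 to 5.17 FPKM) and -0.44 (8.65 to 6.33 FPKM). CYP1A1, a target of AHR, lay the other way with -0.46 in HCC70 and 0.53 in MDA-MB468, where it went from 37.6 to 54.2 FPKM. OASL was at -0.69 and 0.23, the latter with an interval of 0.002 to 0.46. ACSL3 was at 0.24 and -0.20, and CDKN2D at 0.38 and -0.16. ATP5MF-PTCD1 (0.69 and -1.78) is a readthrough.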

How the results depend on the processing

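With 1 library per dose, no replicate could be left out. No paired analysis was possible because each condition compared has 1 library. The counts depend on how low values are treated. In the order fell, rose, graded, saturated, late and returned, they were 161, 137, 30, 215, 103 and 98 as reported. They were 67, 45, 16, 124, 32 and 30 with a pseudocount of 1, 787, 737, 88, 692, 561 and 649 with no filter on low values, 20, 27, 14, 97, 10 and 9 with a filter at 5 FPKM, 45, 27, 5, 26, 30 and 22 with calls at 2-fold, and 947, 793, 234, 1621, 577 and 571 with calls at 1.2-fold. More genes fell than rose in each of these settings except the filter at 5 FPKM. With a pseudocount of 0.01, the filter that includes vehicle, rescaled libraries and genes listed at 0 left out, each count stayed within 1.5 times that reported. The median step of the cholesterol list lay between -0.38 and -0.33 in all settings run. For 144 genes with a ratio, 989 of 989 alternative values lay within the gene's counting interval. The filters and leaving out genes listed at 0 cannot change the ratio of a gene that stays in. Only the pseudocounts and the rescaling could move it, so this count says little about how firm the steps are. Depth limits the step of genes below 5 FPKM, and variation between cultures is unknown throughout.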

Other observations

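Some genes that no list held went on by 1.2- to 1.5-fold in the direction of the first dose, and these were named after their values were seen. ERG28, a scaffold for the enzymes that demethylate sterols at carbon 4, was at 86.6, 51.8 and 36.8 FPKM with vehicle, 1.25 μM and 2.5 μM, a step of -0.49 (95% counting interval -0.63 to -0.36). TGM2, a transglutaminase, was at 9.36, 21.3 and 28.8 FPKM (0.43, interval 0.32 to 0.56), and CD14, a co-receptor for lipopolysaccharide, was at 170, 317 and 419 FPKM (0.40, interval 0.34 to 0.46).

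Among the other motif searches, CCAAT was found in the promoters of 16 of 23 stress response genes (69.6%) and 19 of 25 mitosis genes (76.0%), against 43.6% of compared genes. The ATF4 element TGATGCAAT was found in 1 of 23 stress response genes (4.35%) and 0.229% of compared genes. Of the LXR list, 8 genes had a promoter, and AGGTCA was found in 1 of them.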
